A study of Mus musculus with 4 samples.

Results

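A set of 10 genes by which endothelial cells are usually recognised were followed in RNA sequencing of uterine cells labelled as sorted NK cells. The set held the junction genes Cdh5, Pecam1 and Esam, the receptor gene Tie1 and the surface sialomucin genes Emcn and Cd34. It also held the secreted factors Egfl7 and Vwf and the transcription factors Erg and Sox18. All 10 were taken by symbol and were present among the 21993 genes of each library. The libraries came from uteri of female mice mated with B6 males, at gd11.5 of gestation, and the cells were sorted by flow cytometry for NK1.1 and CD45 and against CD3. One genotype carried Cre recombinase under the control of Ncr1, a receptor gene of NK cells (Ncr1Cre, n = 2 libraries), and the other genotype carried no Cre (control, n = 2 libraries). The Cre acts only in cells that use, or whose ancestors used, Ncr1. Nothing in the labels says how many animals gave each library, so the p-values below measure the spread between libraries, which may be technical.

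Endothelial cells line blood and lymph vessels. They hold to one another through VE-cadherin at their junctions, carry the receptor pair TIE1 and TIE2 through which angiopoietins act, and keep their identity through ETS-family and SOX-family transcription factors that act on many endothelial genes at once. In the pregnant mouse uterus the decidua is densely vascularised, and uterine NK cells lie beside its spiral arteries. Endothelial cells do not carry CD45, the pan-leukocyte marker of the sort. Pecam1, Esam, Emcn, Vwf, Erg and Cd34 are also known from platelets, megakaryocytes or blood progenitors, and Cd34 from many fibroblasts.

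Levels are in FPKM, fragments per kilobase of transcript scaled to the mapped fragments of the library. The implied totals were 20940000 to 38500000 fragments, so that a single fragment on 1 kb gave 0.026 to 0.0478 FPKM. The label of the sort was checked against Klrb1c and Ptprc, genes of the sort, and against Ncr1, and no CD3 gene was checked. In the Ncr1Cre libraries Ncr1 was listed at 0 and 0.152 FPKM, against 0.136 and 0.359 FPKM in the control libraries. For Klrb1c, which encodes NK1.1, the values were 0.924 and 0.673 FPKM in the Ncr1Cre libraries, against 0.449 and 0.973 FPKM in the control libraries. Ptprc, which encodes CD45, stood at 4.39 and 5.16 FPKM in the Ncr1Cre libraries, against 2.89 and 2.57 FPKM in the control libraries. None of these 3 genes thus reached the level of Cdh5 in the Ncr1Cre libraries or of Esam in the control libraries. Ptprc did lie above Pecam1, at 3.47 and 3.29 FPKM, in the Ncr1Cre libraries. In the control libraries Ptprc overlapped Pecam1, at 2.33 and 2.63 FPKM. Among all genes, mean FPKM of Klrb1c stood at the 44.1st percentile in Ncr1Cre and the 45.5th in control. Lists of 10 NK-cell and 10 fibroblast genes had summed levels of 27.6 to 27.7 FPKM and 7570 to 7583 FPKM in the Ncr1Cre libraries. In the control libraries these were 20.3 to 20.5 FPKM and 14695 to 15089 FPKM. The levels of these genes did not bear out the NK label, for a reason that was not tested. In such bulk samples, more endothelial cells, more RNA per endothelial cell and RNA of other cells that use these genes cannot be told apart.

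The 10 genes spanned more than 3 orders of magnitude in the control libraries and less than that in the Ncr1Cre libraries. Cd34 stood far above the others in every library. In the Ncr1Cre libraries the order of mean FPKM was Cd34, Cdh5, Egfl7, Esam, Pecam1, Tie1, Sox18, Emcn, Erg and Vwf, in which the neighbours Egfl7 and Esam, and Emcn and Erg, overlapped. In the control libraries it was Cd34, Esam, Cdh5, Egfl7, Pecam1, Tie1, Sox18, Emcn, Vwf and Erg, in which Emcn and Vwf, and Vwf and Erg, overlapped. The main difference in order was in Esam, which stood above Cdh5 and Egfl7 in the control libraries. In the Ncr1Cre libraries Esam stood below Cdh5 and overlapped Egfl7. Cdh5 stood above Egfl7 in both genotypes. Among all 21993 genes Cdh5 stood at the 82.3rd percentile of mean FPKM in Ncr1Cre and at the 60.3rd in control, while Cd34 stood at the 98.4th and the 99.3rd. In RefSeq the non-coding genes Gm29682, Gm38650 and Gm16897 overlap Cdh5, Emcn and Cd34, and whether the counting used strand is not stated, so reads of such partners could be counted with these 3 genes.

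**Figure D1:**
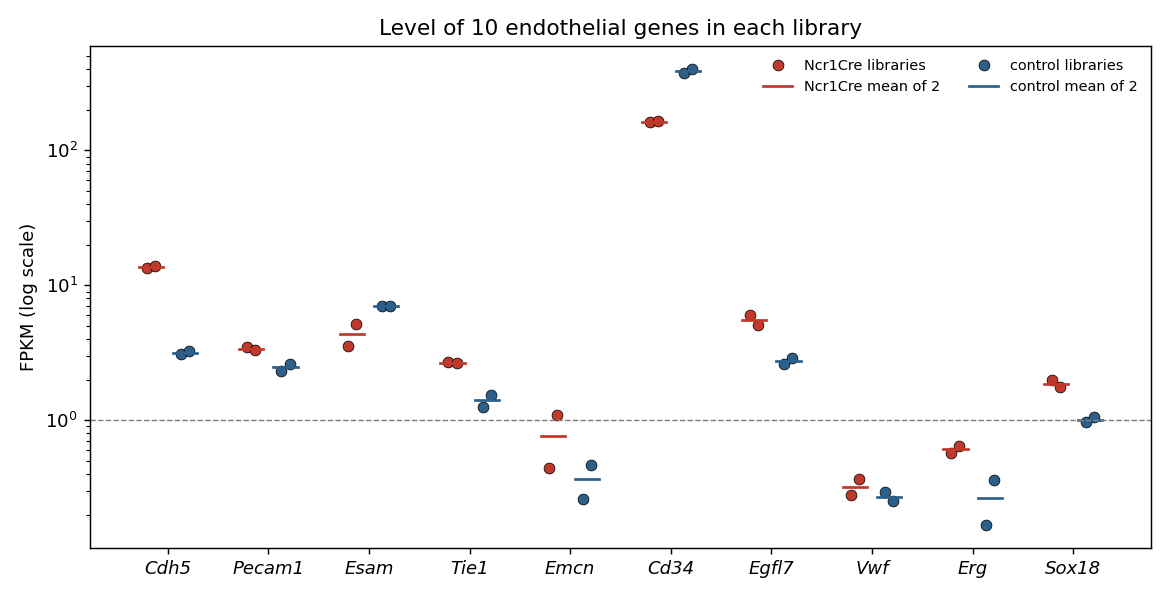
Level of each endothelial gene in FPKM on a log scale, with 1 point per library, a short line for the mean of 2 libraries, and a dashed line at 1 FPKM. The Ncr1Cre points of Cdh5, at 13.4 and 13.8 FPKM, lie above both control points, those of Cd34, at 162 and 164 FPKM, lie below both control points, and Emcn, Vwf and Erg lie near or under the dashed line.

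Between the genotypes the set did not move as one: Cdh5, Egfl7, Tie1 and Sox18 were higher in the Ncr1Cre libraries, Cd34 and Esam were lower, and Pecam1 did not pass the test. The test was limma on log2(FPKM + 1) over the 11762 genes that averaged at least 1 FPKM across the 4 libraries, with Benjamini-Hochberg adjustment and calls at an adjusted p under 0.05. Of the 10 genes, 7 reached this level, and Emcn, Vwf and Erg were not tested. Of the 7, 4 were higher and 2 were lower, where 30.9% of all tested genes were higher and 17.6% lower, 48.5% in all. By a rule of size, with no overlap and means at least 1 apart on the log2(FPKM + 1) scale, Cdh5 was higher and Cd34 was lower, as were 9.81% and 2.70% of all tested genes. The median log2 fold change of the 7 genes was 0.51, against 0.11 over all tested genes.

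**Figure D2:**
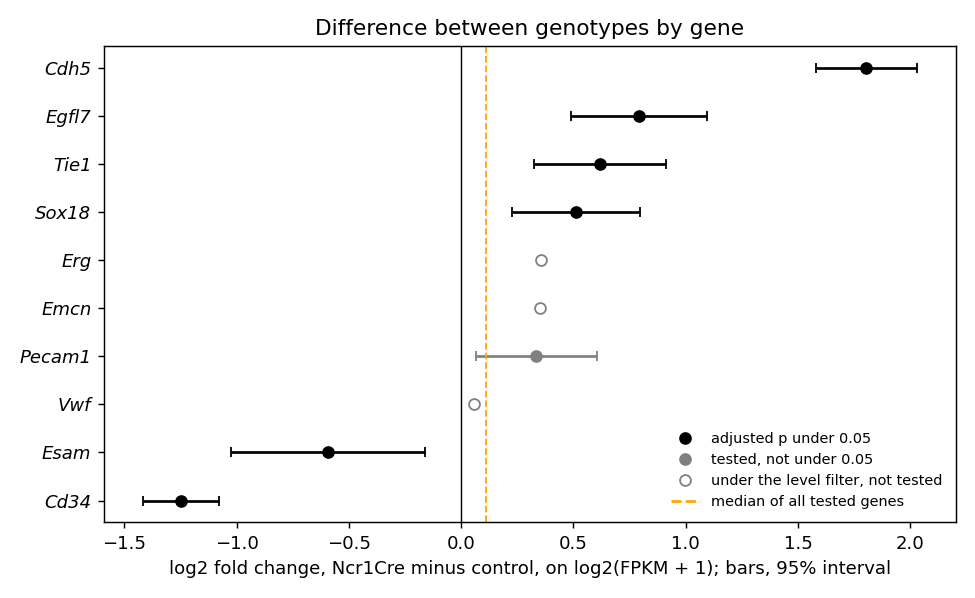
Log2 fold change of each endothelial gene, Ncr1Cre minus control, on the log2(FPKM + 1) scale, with 95% intervals from limma for the 7 tested genes; black marks an adjusted p under 0.05, grey a higher one, open circles genes under the level filter, and the dashed line the median of all tested genes. Cdh5 lies farthest to the right at 1.80 and Cd34 farthest to the left at -1.25.

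Cdh5 encodes VE-cadherin, the adhesion protein of endothelial adherens junctions. It stood at 13.4 and 13.8 FPKM in the Ncr1Cre libraries, against 3.09 and 3.27 FPKM in the control libraries. Both Ncr1Cre libraries were far above both control libraries. The means, 13.6 ± 0.295 and 3.18 ± 0.124 FPKM (SD, n = 2 each), were 4.28-fold apart, with a log2 fold change of 1.80 (SE 0.087, adjusted p = 0.000251 by limma). Of the 11762 tested genes, 298 had a higher log2 fold change than Cdh5.

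Pecam1 encodes PECAM-1 (CD31), an immunoglobulin-family protein of endothelial cell contacts that leukocytes and platelets carry too. It stood at 3.47 and 3.29 FPKM in the Ncr1Cre libraries, against 2.33 and 2.63 FPKM in the control libraries. The genotypes did not overlap, but the log2 fold change of 0.33 (SE 0.11, adjusted p = 0.0505 by limma) missed the threshold, with a 95% interval of 0.06 to 0.61. Without an intensity trend in the variance its adjusted p was 0.0353, and under quantile normalization its log2 fold change was 0.18, with an adjusted p of 0.215 by limma.

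Esam encodes an adhesion molecule of endothelial tight junctions and platelets. It stood at 3.53 and 5.22 FPKM in the Ncr1Cre libraries, against 6.98 and 7.02 FPKM in the control libraries. The Ncr1Cre libraries differed from one another, and both lay below the closely matched control libraries. The log2 fold change was -0.59 (SE 0.17, adjusted p = 0.0374 by limma). The call was lost without Ncr1Cre replicate 1 (log2 fold change -0.36, adjusted p = 0.0695), without control replicate 1 (0.111) or control replicate 2 (0.116), and without the level filter (0.0684).

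Tie1 encodes an orphan receptor tyrosine kinase that modulates angiopoietin signalling through TIE2. It stood at 2.72 and 2.64 FPKM in the Ncr1Cre libraries, against 1.26 and 1.55 FPKM in the control libraries. Both Ncr1Cre libraries were above both control libraries, with means 1.91-fold apart and a log2 fold change of 0.62 (SE 0.11, adjusted p = 0.0102 by limma). Without control replicate 1 the adjusted p was 0.0519.

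Cd34 encodes a sialomucin of capillary endothelium, blood progenitors and many fibroblasts. It stood at 162 and 164 FPKM in the Ncr1Cre libraries, against 375 and 403 FPKM in the control libraries. The Ncr1Cre libraries were nearly equal, and both lay below both control libraries. The means, 163 ± 1.69 and 389 ± 20.0 FPKM (SD, n = 2 each), gave a log2 fold change of -1.25 (SE 0.066, adjusted p = 0.000292 by limma). Only 127 of the tested genes had a lower log2 fold change. Cd34 thus took the opposite direction to Cdh5, with both genes far out in the distribution of all genes.

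Promoter windows of RefSeq on build GRCm38.p6 matched Cd34, Egfl7, Emcn, Erg and Tie1 of the 10 genes. Those of Tie1 and Cd34 are shown because these genes moved in opposite directions while both carry the core letters of ETS factors, the family of ERG and FLI1. Each run holds the 250 bases before the annotated start, 5′ to 3′ on the strand of the gene, with GGAA and its reverse complement TTCC in capitals. The Tie1 window is chr4:118489850-118490099 on the minus strand and the Cd34 window is chr1:194938571-194938820 on the plus strand.
Tie1: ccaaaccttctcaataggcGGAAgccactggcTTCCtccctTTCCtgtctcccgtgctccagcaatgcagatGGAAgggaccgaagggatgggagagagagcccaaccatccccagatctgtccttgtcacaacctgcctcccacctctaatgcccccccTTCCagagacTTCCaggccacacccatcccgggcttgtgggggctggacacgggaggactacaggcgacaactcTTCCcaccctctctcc
Cd34: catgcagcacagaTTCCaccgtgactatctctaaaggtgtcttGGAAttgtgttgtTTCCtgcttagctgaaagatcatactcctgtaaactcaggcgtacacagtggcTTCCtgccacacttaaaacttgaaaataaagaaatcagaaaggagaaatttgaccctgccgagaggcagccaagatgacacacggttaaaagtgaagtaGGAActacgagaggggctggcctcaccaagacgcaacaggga

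The Tie1 window held 7 matches on either strand and the Cd34 window 5. These 4 letters are common: 93.4% of the 32851 promoter windows of the same length held at least 1 match, with a median of 3. Neither window held AACAAT, the letters of a SOX-type motif (9.42% of windows, both strands), or TGTTTAC, those of a forkhead-type motif (3.17%). A match is a description of the letters, and binding was not measured.

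Emcn encodes endomucin, a sialomucin of venous and capillary endothelium. It was low, at 0.445 and 1.09 FPKM in the Ncr1Cre libraries, against 0.263 and 0.466 FPKM in the control libraries. The genotypes overlapped, and the values rested on 41 and 87 fragments against 36 and 34 fragments, counted on the longest transcript of GENCODE M21 at the implied totals. In the fit without the level filter its log2 fold change was 0.35 (SE 0.20, adjusted p = 0.26 by limma over 17500 genes).

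Egfl7 encodes a protein that endothelial cells secrete into the matrix, and its gene hosts the endothelial microRNA miR-126. It stood at 6.03 and 5.07 FPKM in the Ncr1Cre libraries, against 2.64 and 2.91 FPKM in the control libraries. Both Ncr1Cre libraries were above both control libraries, with means 2.0-fold apart and a log2 fold change of 0.79 (SE 0.12, adjusted p = 0.00512 by limma). It passed the test without each of the 4 libraries in turn. The microRNA is shown because a reading of its host gene alone says nothing of its own level, which was not analysed here. In RefSeq (GRCm38.p6, chr2:26591402-26591423, plus strand) its mature form, with the seed of bases 2 to 8 in capitals, reads as follows.
mmu-miR-126a-3p: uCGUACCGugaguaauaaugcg

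Of the 19 Egfl7 transcripts in GENCODE M21, 8 held this microRNA in an intron, 1 held it in an exon, and 10 did not span it. The FPKM of Egfl7 is a sum over the transcripts of the authors' annotation and does not tell these apart.

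Vwf encodes von Willebrand factor, which endothelial cells and platelets store and release. It was low in all 4 libraries, at 0.278 and 0.366 FPKM in the Ncr1Cre libraries, against 0.292 and 0.253 FPKM in the control libraries. The genotypes overlapped, with 64 and 73 fragments on the longest transcript against 99 and 47. The log2 fold change was 0.05, and in the fit without the level filter its adjusted p was 0.515 (limma, SE 0.057).

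Erg encodes an ETS factor that maintains endothelial identity. It stood at 0.573 and 0.649 FPKM in the Ncr1Cre libraries, against 0.168 and 0.360 FPKM in the control libraries. The genotypes did not overlap, but each value rested on few fragments, 48 and 48 against 21 and 24. On the log2(FPKM + 1) scale, which understates the change of low genes, the log2 fold change was 0.35, and the fit without the level filter gave an adjusted p of 0.0489 (limma, SE 0.093).

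Sox18 encodes a SOX factor of the F group, to which Sox7 and Sox17 also belong. It stood at 1.98 and 1.76 FPKM in the Ncr1Cre libraries, against 0.975 and 1.05 FPKM in the control libraries. Both Ncr1Cre libraries were above both control libraries, with means 1.85-fold apart and a log2 fold change of 0.51 (SE 0.11, adjusted p = 0.0162 by limma). The log2 fold change was 0.82 with a pseudocount of 0.1. The call was lost under quantile normalization (0.31, adjusted p = 0.0691) and without Ncr1Cre replicate 1 (0.058), control replicate 1 (0.0748) or control replicate 2 (0.0588).

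Of the 7 tested genes, 5 lay higher in Ncr1Cre without overlap and 2 lower, as did 46.4% and 29.9% of all tested genes. The difference in size between the genes was then set against Cdh5 within each library, where the scaling of the library cancels. Cd34 was 12.1 and 11.9 times the FPKM of Cdh5 in the Ncr1Cre libraries and 121 and 123 times in the control libraries. Esam was 0.264 and 0.378 times the FPKM of Cdh5 in the Ncr1Cre libraries, against 2.26 and 2.15 times in the control libraries. Pecam1 was 0.259 and 0.238 times Cdh5 in the Ncr1Cre libraries, against 0.752 and 0.804 times in the control libraries. Thus every other tested gene of the set was lower relative to Cdh5 in the Ncr1Cre libraries, whichever way its own level went. The same held for most genes of all those tested, as given below.

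**Figure D3:**
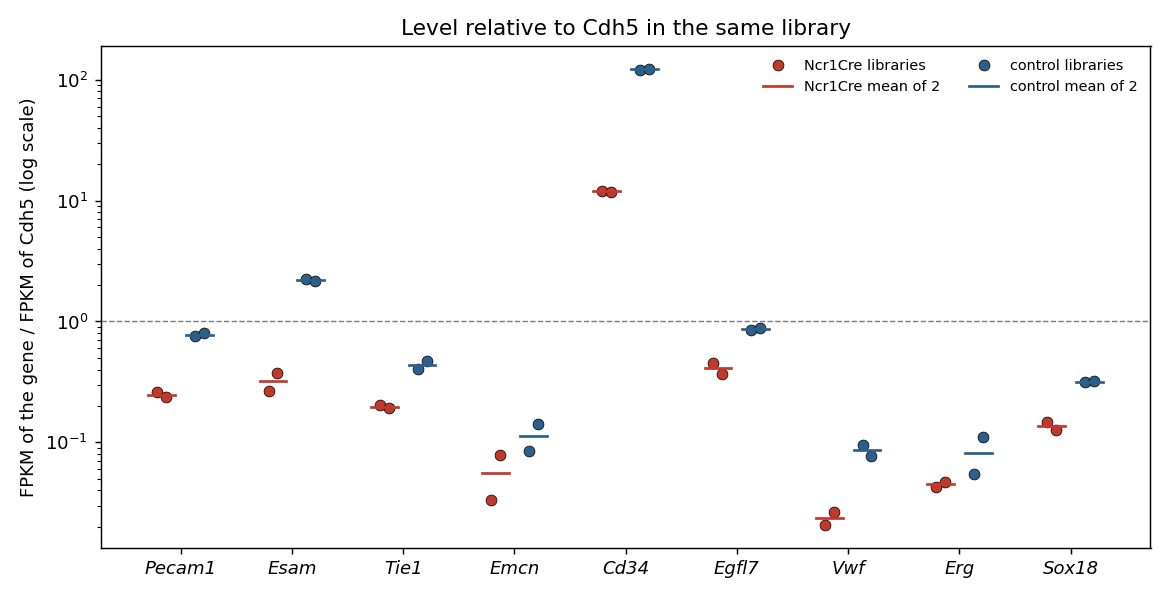
FPKM of each gene divided by that of Cdh5 in the same library, on a log scale, with 1 point per library, a short line for the mean of 2 libraries and a dashed line at equal levels. The Ncr1Cre points lie below the control points for each gene shown, with Cd34 at 12.1 and 11.9 against 121 and 123.

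The log2 fold changes of the 6 other tested genes differed from that of Cdh5 in the same direction, by -1.01 for Egfl7 (SE 0.13, adjusted p = 0.000465) to -3.05 for Cd34 (SE 0.066, adjusted p = 1.57e-05), in limma on the log2 values minus those of Cdh5. By the same test 95.1% of all genes changed less than Cdh5 or fell, so the endothelial genes were not set apart in this, and the error of Cdh5 itself is shared by all these comparisons. The closest in size to Cdh5 were Egfl7, at -1.01, and Tie1, at -1.19 (SE 0.12, adjusted p = 0.000151).

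Other endothelial genes also moved in both directions. Of 24 further genes of the endothelial surface and its signalling, 15 were tested, of which 4 were higher and 5 lower in the Ncr1Cre libraries, with a median log2 fold change of -0.17, where 30.9% of all genes were higher and 17.6% lower. Without the level filter 9 of the 24 were higher and 4 lower, and the median was 0.15. The lower count was 2 without Ncr1Cre replicate 1, without Ncr1Cre replicate 2 or without control replicate 1. Plvap, which forms the diaphragms of fenestrae, stood at 6.77 and 5.75 FPKM in the Ncr1Cre libraries, against 2.09 and 1.59 FPKM in the control libraries (log2 fold change 1.36, adjusted p = 0.00157 by limma). Flt1, which encodes a VEGF receptor and is made by trophoblast too, stood at 18.5 and 17 FPKM against 8.45 and 9.17 FPKM (log2 fold change 0.93, adjusted p = 0.00138 by limma). Both were higher, as Cdh5 was. Acvrl1, the gene of the endothelial BMP receptor ALK1, was lower at 17.7 and 18.1 FPKM in the Ncr1Cre libraries, against 33.7 and 35.4 FPKM in the control libraries (log2 fold change -0.91, adjusted p = 0.000758 by limma). Kdr, which encodes the main VEGF receptor of endothelium and was picked once its values were known, had 2.36 and 1.87 FPKM against 2.74 and 2.27 FPKM, and the genotypes overlapped.

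Of 17 further transcription factor genes with endothelial roles, 12 were tested. Of these, 4 were higher and 4 lower, where 30.9% of all tested genes were higher and 17.6% lower. The higher count was thus near the share of all genes. The median log2 fold change of the 12 was 0.14 (-0.03 after median rescaling). Without control replicate 1 only 2 were lower, and among the 8 that averaged at least 5 FPKM the median was -0.23. Sox7, an F-group relative of Sox18, stood at 14.5 and 13.6 FPKM in the Ncr1Cre libraries, against 2.40 and 3.06 FPKM in the control libraries (log2 fold change 2.02, SE 0.12, adjusted p = 0.000378 by limma). Sox17, picked once its values were known, had 6.56 and 4.57 FPKM against 0.838 and 2.24 FPKM (log2 fold change 1.41, SE 0.31, adjusted p = 0.0168 by limma). The 3 genes of the SOX F group were thus higher in the Ncr1Cre libraries, with Sox18 losing its call under the alternatives named above. Epithelial markers were higher there too, and their part in the SOX F values was not tested. Ets2, an ETS gene that trophoblast and epithelium use as well, was higher at 102 and 100 FPKM against 43.2 and 42.4 FPKM. Lmo2, a partner of blood and endothelial factors, was higher at 3.88 and 4.42 FPKM against 1.5 and 1.79 FPKM, and Foxo1 was lower at 9.80 and 10.8 FPKM against 16.2 and 15.9 FPKM. Fli1, the ETS factor closest to ERG and picked once its values were known, lay below 1 FPKM in all 4 libraries and its genotypes overlapped.

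Among 10 arterial genes, 7 were tested, with a median log2 fold change of -0.33. Of these, 1 was higher and 2 were lower, where 30.9% of all tested genes were higher and 17.6% lower. After median rescaling 4 were lower, and the 2 genes that averaged at least 5 FPKM had a median of 0.48. Jag1, a Notch ligand that epithelia also make, was higher at 17.4 and 16 FPKM in the Ncr1Cre libraries against 4.58 and 4.41 FPKM in the control libraries, while Efnb2, the arterial ephrin ligand, was lower at 12.7 and 10.9 FPKM against 20.1 and 20.1 FPKM. Among 12 venous, lymphatic and leukocyte-adhesion genes, 8 were tested, of which 3 were higher and 3 lower (median -0.01), and 1 was higher and 3 lower under each of median rescaling, quantile normalization and rescaling to equal summed FPKM. The higher count was also 1 without Ncr1Cre replicate 1 or without control replicate 1. Lyve1, a hyaluronan receptor of lymphatic vessels and some macrophages, was higher at 7.66 and 7.55 FPKM against 3.46 and 3.77 FPKM. Ephb4, the venous receptor of EFNB2, was lower at 5.19 and 5.19 FPKM against 9.58 and 8.84 FPKM. An arterial and a venous gene thus both fell, and neither list moved one way.

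Vascular basement membrane genes were mostly lower. Of 9 genes of sprouting and vascular basement membrane, 6 were tested, with a median log2 fold change of -1.0. By limma 0 were higher and 5 lower in the Ncr1Cre libraries, where 30.9% of all tested genes were higher and 17.6% lower. Lama4, a laminin chain of vessel walls and stroma, stood at 57.1 and 56.9 FPKM in the Ncr1Cre libraries, against 163 and 161 FPKM in the control libraries (log2 fold change -1.49, adjusted p = 0.000191 by limma). Col4a1, a collagen IV chain, stood at 237 and 230 FPKM against 499 and 464 FPKM (log2 fold change -1.04, adjusted p = 0.000436 by limma). Fibroblasts and mural cells make these matrix proteins as well. At an unadjusted p under 0.05 none of the 6 was higher either.

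**Figure D4:**
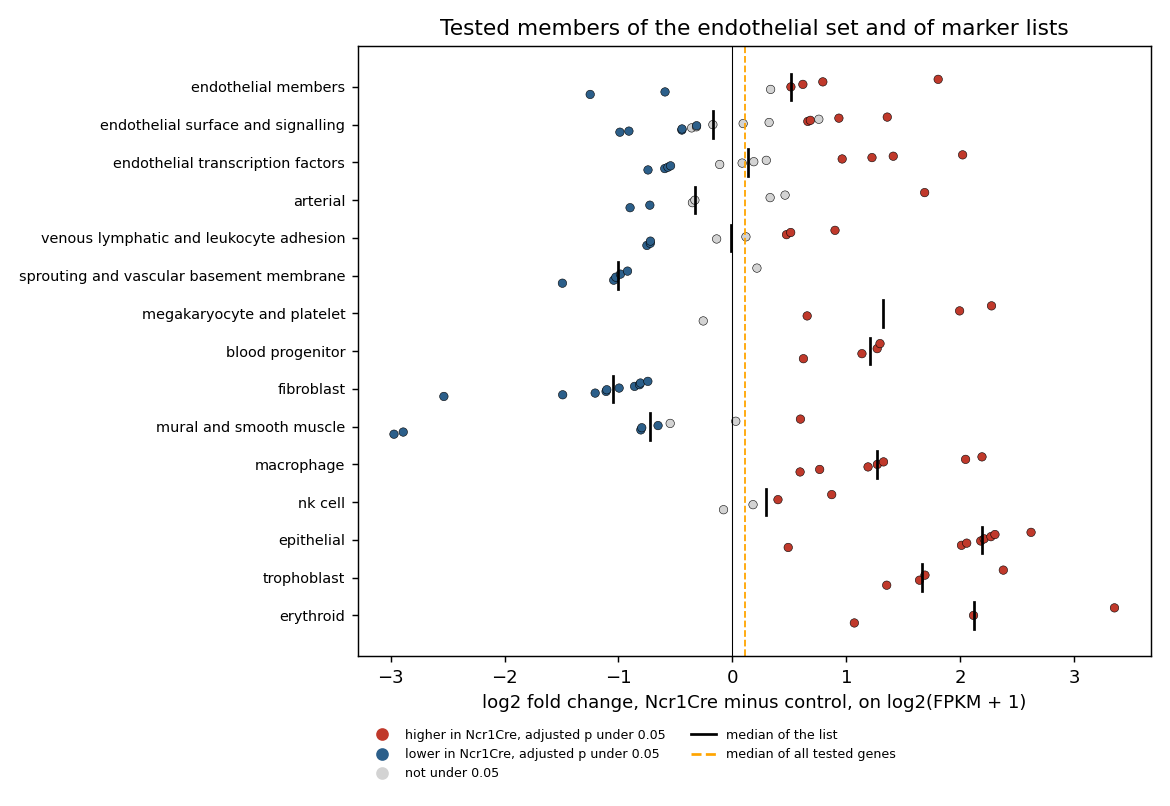
Log2 fold change, Ncr1Cre minus control, of each tested gene of the 10 endothelial genes and of 14 marker lists; red marks a gene higher in Ncr1Cre and blue one lower at an adjusted p under 0.05, grey one that did not pass, the black bar the median of the list and the dashed line the median of all tested genes. The endothelial lists spread over both sides of 0, while all fibroblast points lie left of it and all epithelial, macrophage and trophoblast points lie right of it.

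Markers of fibroblasts and mural cells were mostly lower in the Ncr1Cre libraries, as Cd34 and Esam were. Of all tested genes 30.9% were higher and 17.6% lower. Fibroblast genes, the list whose cells share Cd34, were lower in 10 of 10 tested, with a median log2 fold change of -1.05, and their summed level was 7570 to 7583 FPKM in the Ncr1Cre libraries and 14695 to 15089 FPKM in the control libraries. Mural and smooth-muscle genes were higher in 1 and lower in 5 of 8 tested (0 and 6 under quantile normalization, and 0 higher without any 1 of the 4 libraries), with summed levels of 178 to 182 FPKM against 387 to 401 FPKM. The falls of Cd34 and of basement membrane genes therefore went with lower fibroblast and mural markers, whose part in them was not tested.

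Most tested blood and placental markers were higher in the libraries in which Cdh5 was higher. Over all tested genes, 30.9% were higher and 17.6% lower. Of 10 megakaryocyte and platelet genes, 4 were tested and 3 were higher (3 higher and 1 lower after median rescaling), with summed levels of 20.0 to 24.4 FPKM in the Ncr1Cre libraries against 9.06 to 9.09 FPKM in the control libraries. Among them Ppbp stood at 7.95 and 7.47 FPKM against 1.06 and 1.32 FPKM, and Pf4 at 6.76 and 4.30 FPKM against 0.383 and 0.273 FPKM. Gp1bb, also tested, lay lower without overlap, at 3.91 and 3.61 FPKM against 4.65 and 4.72 FPKM, and did not pass (adjusted p = 0.0803 by limma). Gp6 was listed at 0 in all 4 libraries. Pf4 reached the level filter only through the Ncr1Cre libraries. Without the filter 3 of 9 platelet genes were higher, and the median log2 fold change was 0.10, against 1.32 with it. Blood progenitor genes were higher in 4 of 4 tested of 8, with summed levels of 21.6 to 22.3 FPKM against 7.87 to 8.69 FPKM. Of these 4, Kit, at a mean of 1.78 against 0.808 FPKM, reached the level filter only through the Ncr1Cre libraries. Without the filter 5 of the 8 were higher and 0 lower, with a median log2 fold change of 0.46, against 1.20 with it. The part of platelet and blood progenitor RNA in the values of Pecam1, Esam, Erg and Vwf was not tested.

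Macrophage genes were higher in 7 of 7 tested of 10, where 30.9% of all tested genes were higher. Without the level filter 8 of the 10 macrophage genes were higher and 0 lower, with a median log2 fold change of 0.98, against 1.27 with it. Their summed levels were 96.8 to 98.5 FPKM in the Ncr1Cre libraries against 28.4 to 30.5 FPKM in the control libraries. Epithelial genes were higher in 8 of 8, at 2034 FPKM in sum in both Ncr1Cre libraries against 491 to 516 FPKM. Trophoblast genes were higher in 4 of 4 tested of 8, at 938 to 1060 FPKM against 312 to 353 FPKM, with Gcm1 listed at 0 in all 4 libraries. Erythroid genes were higher in 3 of 3 tested of 7, at 18.7 to 20.3 FPKM against 1.39 to 1.52 FPKM. These 3 averaged 0.269 (Hbb-y), 0.030 (Hba-x) and 0.677 FPKM (Alas2) in control. They thus reached the level filter only through the Ncr1Cre libraries, which all but fixed that count. Without the filter 5 of the 7 were higher and 0 lower, with a median log2 fold change of 0.62, against 2.11 with it. NK-cell genes were higher in 2 of 4 tested of 10, at 27.6 to 27.7 FPKM against 20.3 to 20.5 FPKM, and in 1 of 4 after median rescaling, without Ncr1Cre replicate 1, or without either control library. The rises of Cdh5, Egfl7, Tie1 and Sox18 thus went with rises in several other cell types' markers, whose part in them was not tested.

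The genes whose profile over the 4 libraries lay nearest to that of Cdh5, by Euclidean distance between centred log2(FPKM + 1) values, were Cwh43, Mal2, Mrps6, Tgm1 and Gzmg, at distances of 0.028 to 0.048. Mal2, for example, stood at 19.0 and 18.8 FPKM in the Ncr1Cre libraries, against 4.70 and 4.84 FPKM in the control libraries. None of them is in the endothelial lists. Among them, Gzmg is a granzyme gene outside the NK-cell list. It stood at 92.0 and 98.7 FPKM in the Ncr1Cre libraries, against 26.2 and 26.7 FPKM in the control libraries. Its bearing on the NK label was not tested. The nearest to Cd34 were Gpm6a, Fkbp9, Abca9, Dcn and Sparcl1, at distances of 0.023 to 0.073. Dcn, a gene of the fibroblast list, stood at 1229 and 1320 FPKM in the Ncr1Cre libraries, against 2827 and 3051 FPKM in the control libraries. With 4 libraries in 2 genotypes, many genes share such a profile.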

How the data were processed

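RNA was sequenced from 4 libraries of sorted uterine cells, 2 per genotype. The rest of the genotype and 1 gene of a marker list are not reported here. The authors deposited 1 FPKM value per gene and library, which per the submitters' processing notes came from Cufflinks and build mm9, and the aligner, annotation and versions are not stated there. Groups and replicate numbers came from the labels. The members and gene lists were chosen with earlier results of these data known.

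The FPKM values were taken as log2(FPKM + 1) and fitted with limma 3.58.1 in R 4.3.3 with an intensity trend, on genes that averaged at least 1 FPKM, with two-sided p-values adjusted over all 11762 of them. Counts of reads were not given, so totals of fragments were estimated from the steps between low values of genes with 1 transcript, with a tolerance of 0.02 fragments. Of these low values 37.8% to 39.6% were whole, and no count test was run. On those totals replicates differed by more than sampling noise (median chi-square 2.28 in Ncr1Cre and 2.14 in control). With 2 libraries a genotype an exact permutation test reaches p = 0.333 at the lowest, so none was used. Fits were tested on simulated data. Log2 fold changes are Ncr1Cre minus control. All 10 members were named. Genes of the lists were named from the 4 of smallest p in each, not all of them. Named besides were genes of the sort, Ncr1, markers listed at 0 in all libraries and the genes nearest in pattern. Kdr, Tek, Sox17 and Fli1 were picked once their values were known. Adgre1 was matched through its identifier. The alternatives were another pseudocount, other filters, other scalings, no trend, the replicate block, a rule of size and leaving out each library. No deposited coordinates were used, since RefSeq and GENCODE M21 are on GRCm38.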

Additional observations from a re-analysis of the deposited data

How the results depend on the processing

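Directions of the 7 tested genes held under every alternative run, and Cdh5, Cd34 and Egfl7 kept their calls in each limma fit that tested them, while by the rule of size Cdh5 and Cd34 were called and Egfl7 was not. The count of higher endothelial genes, 4, was 1 on the 7516 genes that averaged at least 5 FPKM, where 3 members were tested, 1 by the rule of size given above, and 2 to 4 with 1 library left out, with 2 without control replicate 1. The count of lower ones, 2, was 1 without the level filter, 1 by the rule of size and 1 to 2 with 1 library left out. In all 5709 genes were called and 1471 met the rule of size, and leaving out 1 library gave 4154 to 4942. The number of members that differed from Cdh5, 6, was 2 at an average of at least 5 FPKM. Leaving out a library assumes that the lone library of a genotype varies like the others. Of all calls 63.7% were higher, but 46.2% after median rescaling, 46.3% under quantile normalization and 41.3% at equal summed FPKM, a scaling chosen after seeing the data. The median log2 fold change was 0.11 as deposited and -0.05 after median rescaling. The replicate numbers share only a number (correlation of replicate differences 0.16 over genes), and the replicate block kept the same members called, with 6004 genes in all. Of 78 called genes in the marker lists, 11 lost their call without control replicate 1, more than in the other alternatives, where 0 to 6 did. Members that averaged under 1 FPKM rest on 21 to 99 fragments, and intervals from limma do not separate counting error.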
